A study of Mus musculus with 6 samples.

Results

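Integrins are receptors that span the cell membrane and hold cells to the extracellular matrix or to other cells. Each receptor pairs an alpha with a beta subunit, and the pair decides what is bound: collagen, laminin, fibronectin, vitronectin, fibrin or a counter-receptor on another cell. Inside the cell the beta tail recruits talin, kindlin and other adaptors that join the receptor to actin, and in heart muscle this linkage sits at the costamere, where the sarcomere is anchored to the membrane. Here 10 integrin subunit genes were described, chosen by symbol from the 22556 genes of the table, and all 10 were found. Itga7 stands for the myocyte, Itga5, Itga11, Itgav, Itgb1, Itgb3 and Itgb5 for mesenchymal and broadly expressed subunits, and Itgam, Itgax and Itgb2 for leukocytes. These classes are textbook assignments and were not measured here, since RNA came from whole heart.

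The hearts came from wild-type mice given angiotensin II (Ang II), a hormone that raises blood pressure. Osmotic pumps placed under the skin released 1000 ng per kg of body weight each minute for 7 days in 1 group and 28 days in another. Controls are labelled as 0 days of infusion. The labels state the dose of 1000 ng for all 6 libraries alike, without saying whether the controls had a pump or a vehicle, nor the strain, age or sex of the mice. Each group had 2 libraries, 6 in all, and nothing says that they came from separate animals, so p-values reflect only how these samples vary, and that variation may be technical.

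Levels are RPKM, read counts scaled by the length of the transcript and the reads mapped, 1 value per gene and library. Depth was estimated from the steps between low RPKM values at 10.9 M to 14.2 M reads a library (M for mega), an approximate figure that uses transcript lengths of another annotation. The log2 ratio between replicates had an SD of 0.313 in controls, 0.434 at 7 days and 0.397 at 28 days. Heart muscle genes were abundant in every library, with 10 cardiomyocyte markers summing to between 43000 and 57700 RPKM. The 4 atrial markers summed to 320 RPKM in control replicate 1 and 3020 RPKM in control replicate 2, and to between 2040 and 3430 RPKM in the infused libraries. The part of atrial tissue in the results was not tested.

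The subunits spanned more than 2 orders of magnitude in the controls. Mean control levels in RPKM were 88.2 for Itgb1, 29.95 for Itga7, 25.7 for Itgb5, 10.2 for Itga5, 2.53 for Itgav, 1.87 for Itgb2, 1.28 for Itgam, 0.295 for Itga11, 0.259 for Itgb3 and 0.150 for Itgax. Neighbours in this order were separated in both control libraries down to Itgam. Itga11 and Itgb3 overlapped, as did Itgb3 and Itgax. At 28 days Itga7 and Itgb5 overlapped too, at 29.4 to 35.4 and 26.5 to 29.8 RPKM. The plot of subunit levels shows these positions for each library.

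**Figure D1:**
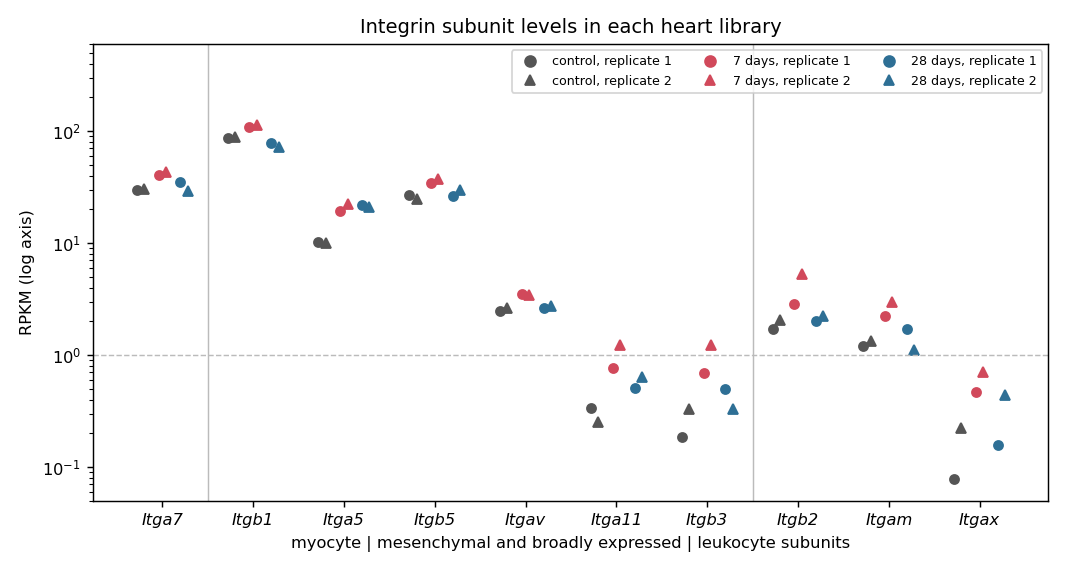
RPKM (log axis) of the 10 integrin subunits in each of the 6 libraries, with colour for the group and the symbol for the replicate number. The dashed line marks the mean of 1 RPKM needed for testing. All 7 day points lie above both control points of the same gene, and the Itga5 points at 28 days lie as high as those at 7 days.

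Genes with a mean of at least 1 RPKM over the 6 libraries were tested with limma on log2(RPKM + 0.5), which left 11096 genes and 7 of the 10 subunits. Itga11, Itgb3 and Itgax were below this level, and their changes come from an alternative fit without this filter. A gene passed at an adjusted p under 0.05 over all tested genes. Changes are given on the log2(RPKM + 0.5) scale, which understates the change of genes at a low level. In whole heart RNA, a change in the number of cells of a type and a change in RNA per cell cannot be told apart.

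After 7 days, 4 of the 7 tested subunits rose and 0 fell: Itga5, Itgam, Itga7 and Itgb5. Of all tested genes 13.2% passed as higher and 2.27% as lower. Itgb2, Itgb1 and Itgav did not pass, at log2 changes of 0.91, 0.34 and 0.38. The median change of the 7 tested subunits was 0.48, against 0.14 over all tested genes. At an unadjusted p under 0.05 all 7 were higher and 0 lower. The share of all genes at an unadjusted p under 0.05 was not counted for any comparison. In all 10 subunits both 7 day libraries were higher than both controls, which held for 40.1% of the 17585 genes above 0 in any library. After 28 days only Itga5 rose, out of 7 tested, with 0 lower, where 2.87% of all tested genes passed as higher and 1.54% as lower. At an unadjusted p under 0.05, Itgb1 was lower. The median change was then 0.10, against 0.01 over all tested genes. Both infused groups were compared with the same 2 control libraries, so the comparisons are not independent.

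Of the 4 subunits that rose at 7 days, Itga5 passed in all 15 alternative settings, and the other 3 lost their call in several. Median ratio scaling moved the median of all genes from 0.14 to -0.01 and left Itga5 as the subunit that passed, and quantile normalization moved it to -0.04 and did likewise. Calls over all genes were 1461 higher and 252 lower as deposited, 729 and 426 after median ratio scaling, and 701 and 527 after quantile normalization. The 7 tested subunits kept a change above 0 at 7 days under both scalings.

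**Figure D2:**
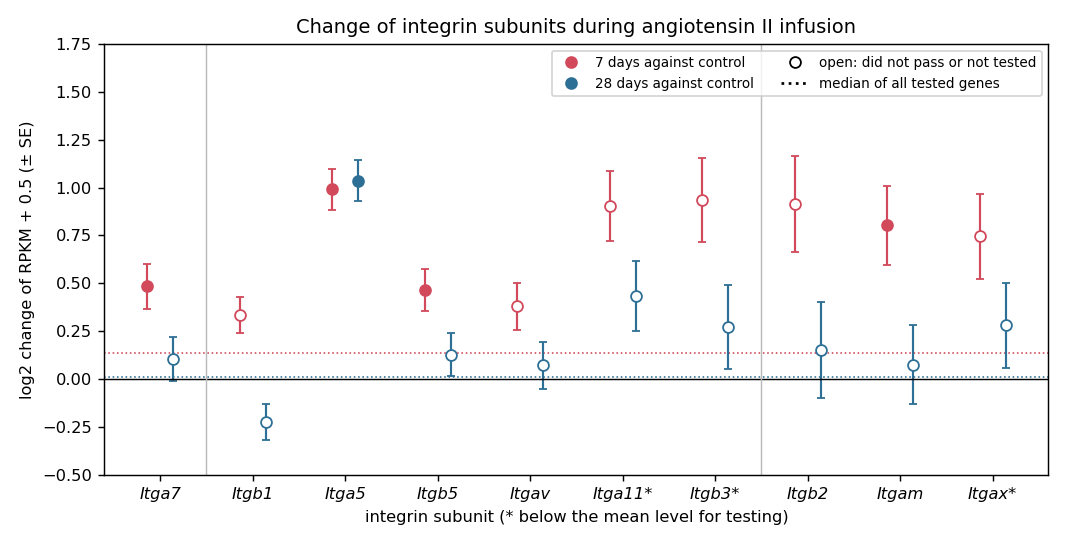
Log2 change of RPKM + 0.5 (± SE) for each subunit at 7 and at 28 days against the controls, with filled points for those that passed and dotted lines at the median of all tested genes (0.14 and 0.01). Subunits with an asterisk were not tested, and their values come from the fit without a filter. Itga5 has filled points at both times, near 1, while the other 28 day points are open and lie between -0.23 and 0.44.

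Itgb1 encodes the beta1 subunit, the common partner of Itga5, Itga7 and Itga11 and of many other alpha subunits. Its level was 87.0 and 89.4 RPKM in the controls, 109 and 114 RPKM at 7 days and 78.7 and 72.2 RPKM at 28 days. The 3 groups did not overlap, with 7 days highest and 28 days lowest. Against the controls neither time passed, at 0.34 (SE 0.10; limma adjusted p = 0.0556) after 7 days and -0.23 (SE 0.10; limma adjusted p = 0.223) after 28 days. The 7 day change passed when the fit held only the 2 groups compared (limma adjusted p = 0.0412), and when 28 day replicate 1 or 2 was left out (0.0418 and 0.0411).

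Between the infused groups Itgb1 fell by 0.56 on the log2 scale from 7 to 28 days (SE 0.10; limma adjusted p = 0.025). It was the only one of the 7 tested subunits to pass, with 1 lower and 0 higher, where 4.26% of all tested genes passed as lower and 0.406% as higher. In 9 of the 10 subunits, all but Itga5, both 28 day libraries lay below both 7 day libraries, as in 34.9% of the 17585 genes. Over all genes 45 passed as higher and 473 as lower, against 63 and 225 after median ratio scaling and 55 and 210 after quantile normalization. The Itgb1 call was lost in 6 of 15 alternatives: without control replicate 1 or 2 (limma adjusted p = 0.0737 and 0.0729), without 7 day replicate 1 or 2 (0.0762 and 0.137), with only the 2 groups compared (0.073), and after median ratio scaling, where the change was -0.42 (0.0831).

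Itga5 encodes alpha5, which pairs only with beta1 to form the classical fibronectin receptor. Its level was 10.3 and 10.1 RPKM in the controls, 19.4 and 22.2 RPKM at 7 days, and 21.9 and 20.8 RPKM at 28 days. The infused libraries were all higher than the controls, and those of 7 and 28 days overlapped. The mean rose from 10.2 ± 0.114 to 20.8 ± 1.98 RPKM at 7 days (SD, n = 2; 2.04-fold) and to 21.4 ± 0.780 RPKM at 28 days (2.10-fold).

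The log2 change of Itga5 was 0.99 at 7 days (SE 0.11; limma adjusted p = 0.00259) and 1.04 at 28 days (SE 0.11; limma adjusted p = 0.00661). Over the 15 alternatives the 7 day change ranged from 0.83 to 1.09, with limma adjusted p from 0.00205 to 0.0287. The 28 day call was lost on leaving out control replicate 1 (limma adjusted p = 0.0725) or control replicate 2 (0.0502), while the change stayed between 0.99 and 1.07 over the alternatives. From 7 to 28 days Itga5 differed by 0.05 (limma adjusted p = 0.842).

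Since alpha5 and beta1 form 1 receptor, their promoters are shown together. They are taken from RefSeq on GRCm38.p6, 250 bases before to 50 bases after the annotated start. Itga5 lies at chr15:103366742-103367041 on the minus strand and Itgb1 at chr8:128685404-128685703 on the plus strand, each printed 5′ to 3′ on the strand of its gene. Capitals mark GAGGAA, a core of the purine-rich sites bound by ETS factors such as PU.1, searched on both strands, so that TTCCTC marks the reverse strand.
Itga5: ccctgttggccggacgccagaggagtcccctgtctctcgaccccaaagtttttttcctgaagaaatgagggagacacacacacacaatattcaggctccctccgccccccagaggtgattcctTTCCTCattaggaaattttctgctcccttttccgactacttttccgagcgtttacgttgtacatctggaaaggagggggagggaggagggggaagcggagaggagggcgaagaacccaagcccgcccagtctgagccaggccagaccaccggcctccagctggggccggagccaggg
Itgb1: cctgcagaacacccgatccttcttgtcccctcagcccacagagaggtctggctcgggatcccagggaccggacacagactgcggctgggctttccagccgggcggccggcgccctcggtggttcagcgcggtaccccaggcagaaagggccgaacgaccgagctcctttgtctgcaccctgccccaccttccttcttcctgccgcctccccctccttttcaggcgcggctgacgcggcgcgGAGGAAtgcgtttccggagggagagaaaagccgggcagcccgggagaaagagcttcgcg
Each holds 1 match, at -127 in Itga5 and -9 in Itgb1, counted from the start site. GAGGAA was found in 28.3% of the 32851 promoters of the same length, and a match is a description of letters, not of a bound site. The Itgb1 promoter holds 27 CpG dinucleotides and that of Itga5 13, against a median of 7 over all promoters.

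The ratio of Itga5 to Itgb1 RPKM was 0.118 and 0.113 in the controls, 0.177 and 0.195 at 7 days and 0.279 and 0.289 at 28 days. The 3 groups were separate and ordered by time. Across the 6 libraries the correlation of Itga5 with Itgb1 (Pearson r of log2(RPKM + 0.5), n = 6) was 0.09, the lowest of any pair of the 10 subunits. The 6 points share their groups and scaling, and this is a description.

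Itga7 encodes alpha7, the main laminin-binding alpha subunit of muscle, which pairs with beta1 at the costamere. Its level was 29.6 and 30.3 RPKM in the controls, 41.0 and 43.2 RPKM at 7 days, and 35.4 and 29.4 RPKM at 28 days. The 7 day libraries were the highest, and 28 day replicate 2 lay just under the controls. Itga7 rose at 7 days by 0.48 (SE 0.12; limma adjusted p = 0.0339) and did not pass at 28 days (0.10; limma adjusted p = 0.637). The 7 day call was kept in 6 of 15 alternatives and was lost when any control or 7 day library was left out. The cardiomyocyte marker sums overlapped, with 45900 and 44900 RPKM in the controls and 53400 and 43000 RPKM at 7 days. Of the 10 markers 2 passed as higher at 7 days, where 13.2% of all tested genes did.

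Itga7 took a smaller share of alpha subunit RNA in the infused libraries, and Itga5 a larger one. Itga7 made up 44.8% and 43.9% of the summed RPKM of 18 alpha subunits in the controls, 39.7% and 36.9% at 7 days, and 39.8% and 35.1% at 28 days. Itga5 made up 15.5% and 14.6% in the controls, 18.8% and 18.9% at 7 days, and 24.7% and 24.9% at 28 days. The Itga5 share was separate in all 3 groups, and that of Itga7 was lower in each infused library than in the controls although its own RPKM rose at 7 days. The shares of Itga6 and Itga9 were also higher at 7 days than in the controls, at 10.6% and 12.3% against 8.88% and 8.82% for Itga6 and at 15.4% and 14.2% against 12.2% and 13.2% for Itga9. The ratio of Itga5 to Itga7 was 0.346 and 0.333 in the controls and 0.620 and 0.710 at 28 days.

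**Figure D3:**
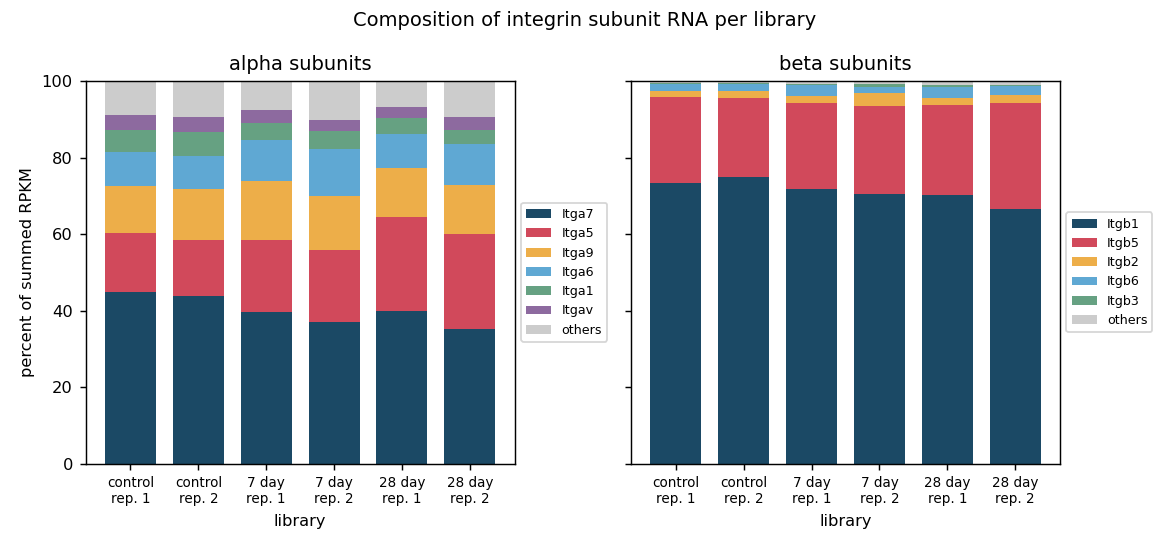
Percent of summed RPKM taken by each subunit among 18 alpha (left) and 8 beta (right) subunits, 1 bar per library, with the remaining subunits in grey. The Itga5 segment grows from 14.6% to 15.5% in controls to 24.7% to 24.9% at 28 days, and Itgb1 holds 66.7% to 75% of the beta sum in every library.

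The alpha sum was 66.1 and 69.0 RPKM in the controls, 103 and 117 RPKM at 7 days, and 88.9 and 83.7 RPKM at 28 days. It was higher in each infused library than in the controls. The beta sum was 119 RPKM in both controls, 152 and 161 RPKM at 7 days, and 112 and 108 RPKM at 28 days, so the 28 day libraries lay above the controls for alpha and below them for beta. The 10 subunits together covered 63.0% to 70.1% of the alpha sum and 95.9% to 97.7% of the beta sum.

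Itga11 encodes alpha11, a receptor for fibrillar collagen found on fibroblasts, again with beta1 as its partner. Its level was 0.336 and 0.255 RPKM in the controls, 0.768 and 1.24 RPKM at 7 days, and 0.511 and 0.642 RPKM at 28 days. The 3 groups did not overlap, with the controls lowest and 7 days highest. These levels rest on few reads, estimated at 20 and 16 in the controls, 54 and 86 at 7 days and 30 and 35 at 28 days. The ratio of means was 3.40 at 7 days and 1.95 at 28 days. Without the filter on low values, the log2 change was 0.90 at 7 days (limma adjusted p = 0.0493) and 0.44 at 28 days (limma adjusted p = 0.314). The 8 fibroblast markers summed to 921 and 939 RPKM in the controls, 1100 and 1050 RPKM at 7 days and 993 and 739 RPKM at 28 days. Most of this sum is Gsn and Dcn, and Gsn, at 489 and 508 RPKM in the controls and 429 and 384 RPKM at 7 days, did not pass. Of the 8 markers 3 rose at 7 days, Col1a2 (2.09), Lum (1.2) and Dpt (0.84), where 13.2% of all tested genes did. The part of fibroblasts in the Itga11 values was not tested.

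Itgav encodes alphav, which pairs with beta1, beta3, beta5, beta6 or beta8 and binds ligands carrying the RGD motif, among them vitronectin and the latent form of TGF-beta. Its level was 2.45 and 2.61 RPKM in the controls, 3.48 and 3.41 RPKM at 7 days and 2.63 and 2.74 RPKM at 28 days. The 7 day libraries stood apart, and the 28 day values lay just above the controls. At 7 days the log2 change was 0.38 and did not pass (SE 0.12; limma adjusted p = 0.0791), and at 28 days it was 0.07 (limma adjusted p = 0.776). In the 28 day comparison both libraries lay above both controls for 3 subunits, Itga5, Itga11 and Itgav, and below them for 1, Itgb1. Over all genes above 0 in any library these shares were 24.7% and 21.3%.

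Itgb5, the vitronectin receptor partner of alphav, measured 26.8 and 24.6 RPKM in the controls, 34.1 and 37.0 RPKM at 7 days, and 26.5 and 29.8 RPKM at 28 days. The 28 day range overlapped the controls and the 7 day range did not. Itgb5 rose at 7 days by 0.46 (SE 0.11; limma adjusted p = 0.0332) and did not pass at 28 days (0.13; limma adjusted p = 0.53). Its 7 day call was kept in 8 of 15 alternatives and was lost when any control or 7 day library was left out. Itgb5 held 20.6% to 27.5% of the beta sum.

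Itgb3 encodes beta3, the platelet fibrinogen receptor subunit, which also pairs with alphav on vascular cells. Its level was 0.187 and 0.331 RPKM in the controls, 0.699 and 1.24 RPKM at 7 days and 0.502 and 0.330 RPKM at 28 days. Both 7 day libraries were above all others, and 1 of the 28 day libraries lay within the control range. Estimated reads were 13 and 24 in the controls, 57 and 100 at 7 days, and 35 and 21 at 28 days. Without the filter, the change of Itgb3 at 7 days was 0.94 and did not pass (limma adjusted p = 0.0684). The 5 platelet markers summed to 21.5 and 24.5 RPKM in the controls, 33.7 and 32.6 RPKM at 7 days and 22.1 and 19.0 RPKM at 28 days, highest at 7 days as Itgb3 was. Nearly all of this sum is Pf4, the 1 tested marker, which did not pass at 7 days (0.53; limma adjusted p = 0.0528), and the part of platelets in the Itgb3 values was not tested.

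Of the beta partners of alphav, only Itgb5 and Itgb3 are set against it here. Itgb6, another partner, was at 2.32 and 2.30 RPKM in the controls, above Itgb3. The ratio of Itgb5 to Itgav stayed between 9.39 and 10.9 in all 6 libraries. That of Itgb3 to Itgav was 0.0764 and 0.127 in the controls, 0.201 and 0.364 at 7 days, and 0.191 and 0.121 at 28 days. The 7 day libraries had the highest Itgb3 ratios, and the 28 day and control ranges overlapped. No test was made of these ratios.

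Itgb2 encodes beta2, also called CD18, the beta subunit shared by the leukocyte receptors CD11b and CD11c. Its level was 1.70 and 2.04 RPKM in the controls, 2.89 and 5.34 RPKM at 7 days, and 2.00 and 2.25 RPKM at 28 days. The 7 day replicates lay far apart, and both were above the controls, while the 28 day range overlapped the controls. The log2 change at 7 days was 0.91 and did not pass (SE 0.25; limma adjusted p = 0.0506). It passed in 3 of 14 alternatives, among them without 7 day replicate 1, at 1.31 (limma adjusted p = 0.0203), and with a pseudocount of 0.1 (limma adjusted p = 0.0478).

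Itgam encodes CD11b, the alpha subunit of the complement receptor on macrophages, monocytes and neutrophils. Its level was 1.21 and 1.35 RPKM in the controls, 2.25 and 3.0 RPKM at 7 days, and 1.69 and 1.10 RPKM at 28 days. The 28 day libraries were on either side of the controls, and replicate 2 had the lowest value of all 6. Itgam rose at 7 days by 0.80 (SE 0.21; limma adjusted p = 0.0419), and at 28 days its change was 0.08 (limma adjusted p = 0.864). The 7 day call was kept in 6 of 14 alternatives and was lost after median ratio scaling (limma adjusted p = 0.0918), without the filter (0.09), and when any control or 7 day library was left out.

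Itgax encodes CD11c, found on dendritic cells and on some macrophages, and was the lowest of the 10. Its level was 0.0778 and 0.222 RPKM in the controls, 0.466 and 0.713 RPKM at 7 days, and 0.158 and 0.437 RPKM at 28 days. The 7 day libraries were above the controls, and the 28 day libraries overlapped them. Estimated reads were 4 and 12 in the controls, 27 and 40 at 7 days, and 8 and 19 at 28 days. Without the filter, the change of Itgax at 7 days was 0.75 and did not pass (limma adjusted p = 0.112).

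Itgam and Itgax are neighbours on mouse chromosome 7, with 66.9 kb between their start sites on GRCm38.p6. Their RefSeq promoters are shown because the genes share a partner and a locus. That of Itgam lies at chr7:128062390-128062689 and that of Itgax at chr7:128129300-128129599, both on the plus strand, with GAGGAA or TTCCTC in capitals.
Itgam: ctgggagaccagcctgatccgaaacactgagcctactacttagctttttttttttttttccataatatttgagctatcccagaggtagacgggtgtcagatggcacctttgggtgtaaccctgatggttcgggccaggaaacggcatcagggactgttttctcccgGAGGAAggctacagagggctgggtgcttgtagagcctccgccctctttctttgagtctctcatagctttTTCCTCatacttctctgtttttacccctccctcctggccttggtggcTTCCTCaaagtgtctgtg
Itgax: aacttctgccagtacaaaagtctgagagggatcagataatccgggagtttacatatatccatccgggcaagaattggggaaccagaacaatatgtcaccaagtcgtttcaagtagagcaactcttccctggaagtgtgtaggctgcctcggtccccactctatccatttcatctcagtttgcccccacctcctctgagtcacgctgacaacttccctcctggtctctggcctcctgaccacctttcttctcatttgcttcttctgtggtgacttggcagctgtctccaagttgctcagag
Itgam holds 3 matches to GAGGAA, at -84, -15 and 33 bases from the start site, and Itgax holds 0 in this window. Itga11 holds 1, Itgav 2 and Itgb5 0. The TATAAA motif was in 0 of the 7 subunit promoters at hand and in 13.6% of all promoters on either strand. The leukocyte genes had the fewest CpG, 6 in Itgam and 5 in Itgax, against 13 to 27 in Itga5, Itga11, Itgav, Itgb1 and Itgb5. Promoters of Itga7, Itgb2 and Itgb3 were not matched.

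Of the leukocyte subunits, Itgam passed at 7 days, Itgb2 did not and Itgax was below the level for testing, and the leukocyte markers are given beside them. All 6 general leukocyte markers and 12 of 15 macrophage and monocyte markers rose at 7 days, where 13.2% of all tested genes did. Cd163 and Lyve1 went the other way, from control means of 5.67 and 10.1 RPKM to 4.36 and 7.62 RPKM, and did not pass. The macrophage sum was 400 and 409 RPKM in the controls, 657 and 741 RPKM at 7 days and 366 and 267 RPKM at 28 days. From 7 to 28 days 12 of the 15 fell, where 4.26% of all tested genes did. The 8 dendritic cell markers summed to 7.62 and 5.77 RPKM in the controls, 8.44 and 10.1 RPKM at 7 days and 9.09 and 8.68 RPKM at 28 days. Most of this sum is Zbtb46, Clec9a and Clec10a, the 3 tested, of which 0 passed at 7 days. The part of these cells in the subunit values was not tested.

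Neutrophil markers took another course. They summed to 2.16 and 1.80 RPKM in the controls, 7.12 and 13.8 RPKM at 7 days, and 34.0 and 126 RPKM at 28 days. All 3 tested rose at 28 days (S100a8, S100a9 and Retnlg), where 2.87% of all tested genes did, while Mpo and Elane were at 0. The library with the largest neutrophil sum, 28 day replicate 2, had the lowest Itgam and also the lowest macrophage sum, 267 RPKM. Most of its neutrophil sum is S100a8 and S100a9, at 51.8 and 64.4 RPKM. Relative to 1000 RPKM of macrophage markers, Itgam was 3.03 and 3.29 in the controls, 3.42 and 4.05 at 7 days and 4.63 and 4.13 at 28 days, above the controls in each infused library. Relative to 1000 RPKM of the general leukocyte markers it was 18.4 and 21.2 in the controls, 18.3 and 21.8 at 7 days and 28.2 and 19.9 at 28 days, where both infused groups overlapped the controls. The 2 marker sums thus gave different orders. Most of the macrophage sum is Lyz2, C1qa, C1qb and C1qc, and most of the general leukocyte sum is Tyrobp and Fcer1g. The ratio of Itgam to Itgb2 overlapped in all 3 groups, at 0.489 to 0.846.

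**Figure D4:**
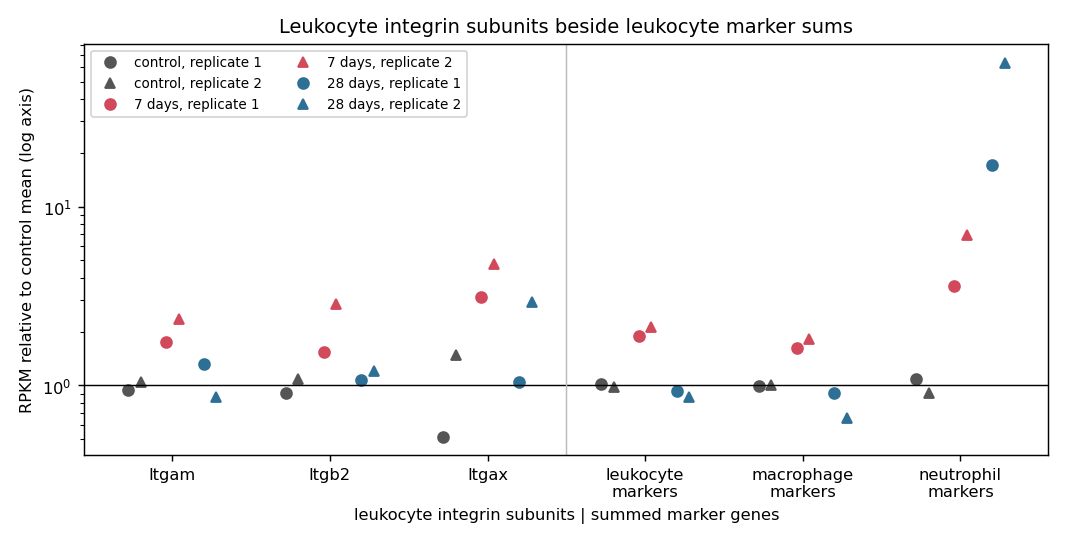
Level relative to the control mean (log axis) of Itgam, Itgb2 and Itgax and of 3 summed marker lists in each library. Itgam and the leukocyte and macrophage sums are highest at 7 days, whereas the neutrophil sum is highest at 28 days, where Itgam of replicate 2 is the lowest of the 6 libraries.

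The other 16 integrin subunits gave 6 tested genes, of which 2 rose and 0 fell at 7 days. Of all tested genes 13.2% passed as higher and 2.27% as lower at that time. Itga9, whose product binds tenascin and osteopontin, measured 8.07 and 9.08 RPKM in the controls, 15.9 and 16.6 RPKM at 7 days and 11.5 and 10.7 RPKM at 28 days. It rose at 7 days by 0.89 (limma adjusted p = 0.00355) and was lower at 28 than at 7 days by -0.53 (limma adjusted p = 0.0419), a call lost in 12 of 15 alternatives. Itga6, a laminin-binding subunit, measured 5.87 and 6.09 RPKM in the controls, 10.9 and 14.4 RPKM at 7 days and 7.76 and 8.92 RPKM at 28 days. It rose at 7 days by 1.01 (limma adjusted p = 0.00701), a call lost without control replicate 1 (0.0592). At 28 days 0 of the 6 passed with limma against the controls, and 2 were higher at an unadjusted p under 0.05. Itga1 and Itgb6, the next highest, changed by 0.25 and 0.40 at 7 days and did not pass.

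The matrix and plasma ligands of integrins rose widely at 7 days, with 22 of 29 tested higher and 0 lower. Over all tested genes 13.2% passed as higher at 7 days and 2.87% at 28 days, and 4.26% passed as lower from 7 to 28 days. These shares stand beside the counts of this list and the next 2. In this list and the next 2, 0 genes were lower at 7 days at an unadjusted p under 0.05 too. The median change was 1.53, against 0.14 over all tested genes. The largest changes were those of Thbs4 (3.96), Postn (3.38), Spp1 (3.22) and Thbs1 (2.82), which encode thrombospondin 4, periostin, osteopontin and thrombospondin 1. At 28 days 7 of 29 rose, led by Thbs1 (2.11) and Thbs4 (1.87). That count was 1 without control replicate 1 or 2 and 3 without 7 day replicate 1 or 2, and it was 2 without the filter on low values. Between 7 and 28 days 16 fell, led by Spp1 (-2.70), Postn (-2.50), Col3a1 (-2.24) and Thbs4 (-2.09), and 5 did so without 7 day replicate 2.

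Fn1 encodes fibronectin, the ligand of the receptor of Itga5 and Itgb1, and was singled out for that role after its values were seen. Its level was 4.09 and 4.70 RPKM in the controls, 21.1 and 28.8 RPKM at 7 days and 5.67 and 6.37 RPKM at 28 days. Fn1 rose at 7 days by 2.37 (limma adjusted p = 0.00048) and at 28 days its change was 0.41 and did not pass (limma adjusted p = 0.2). From 7 to 28 days it fell by 1.95 (limma adjusted p = 0.0034), where Itga5 differed by 0.05.

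Among ligands and counter-receptors of the leukocyte integrins, 6 of 8 tested rose at 7 days and 0 fell. They were led by Hp (2.38), C3 (1.57), Thy1 (1.14) and Icam1 (0.95), which encode haptoglobin, complement component C3, a surface glycoprotein and an adhesion molecule of endothelium. The count dropped to 1 without control replicate 1, to 3 without the other control and to 1 without 7 day replicate 2. At 28 days Icam1 (0.83; limma adjusted p = 0.0244) was the only one of the 8 to pass, and it did not pass without control replicate 1 or 2 (0.21 and 0.101) without 28 day replicate 2 (0.0643) or without the filter on low values (0.0787). Thy1 fell by 0.96 from 7 to 28 days (limma adjusted p = 0.0114), and did not pass without 7 day replicate 1 or 2 (0.0609 and 0.11).

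The list of integrin adaptors, kinases and activators, which also holds membrane proteins such as Cd47 and Cd9, was the largest, with 40 tested. At 7 days 21 rose and 0 fell, with a median of 0.49. The largest changes were those of Itgb1bp3 (1.80), a muscle protein that binds the beta1 tail, Nedd9 (1.51), a docking protein of focal adhesions, Flnc (1.34), the muscle filamin, and Zyx (1.11), zyxin. That count was 10 under median ratio scaling and under quantile normalization, 13 without the filter, 5 without control replicate 1, 7 without control replicate 2 and 5 without 7 day replicate 2. At 28 days 6 rose, led by Flnc (1.78), Nedd9 (1.21), Itgb1bp3 (0.86) and Zyx (0.82), and leaving out control replicate 1 left 0 of them and leaving out control replicate 2 left 1, while 3 passed without 7 day replicate 1 or 2 or without 28 day replicate 2, and 0 without the filter. From 7 to 28 days Itgb1bp3 fell by 0.94 (limma adjusted p = 0.0114), and did not pass without 7 day replicate 1 or 2 (0.0612 and 0.11).

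For each tested subunit the genes with the closest course were taken by the Pearson r of log2(RPKM + 0.5) over the 6 libraries. The 6 points fall in 3 groups and share them across genes, so the values are a description. Closest to Itga5 were Rpl37 (0.999), Pdlim1 (0.997) and Samd4b (0.996), and Pdlim1 measured 15.1 and 16.1 RPKM in the controls, 28.8 and 31.6 RPKM at 7 days and 31.2 and 30.6 RPKM at 28 days. Closest to Itgb1 were Zbtb8a (0.998), Ddr2 (0.997) and Ctsc (0.996), where Ddr2 is itself a collagen receptor. Close to Itga7 were Lrrc49 (0.992) and Anxa1 (0.992).

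Closest to Itgb5 were Cap1 (0.998), Rasgrp3 (0.996) and Smad1 (0.996), and closest to Itgav were S100a16 (0.998), Serpinb6a (0.998) and AF251705 (0.996). For the leukocyte subunits they were Clip4 (0.997), Cfb (0.996) and Sulf1 (0.994) with Itgam, and Rcn3 (0.998), 9830001H06Rik (0.995) and Myst2 (0.994) with Itgb2. Among the subunits themselves Itgam was closest to Itga7 (0.981), a myocyte gene, and was at 0.882 with its partner Itgb2.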

How the data were processed

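Whole hearts of 6 mouse libraries in 3 groups were profiled by RNA sequencing. The authors deposited RPKM values, per the file headers, with 1 column per library. The submitters' processing notes name Bowtie 0.12.9, TopHat2 2.0.12, DESeq2 and HTSeq and the builds mm9 and mm8, without roles. The tool and annotation behind the RPKM values remain not given in the sources used here, so strand handling and reads shared between transcripts could not be examined. Genes were matched by symbol. Promoter coordinates are those of RefSeq on GRCm38.p6 and were not joined to any coordinate of the deposited values.

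RPKM were used as deposited, transformed as log2(RPKM + 0.5), and genes with a mean of at least 1 RPKM were kept (11096 of 22556, with 4971 at 0 in all libraries). All 6 libraries were fitted with group means in limma 3.58.1 (R 4.3.3), with variances moderated along a trend with the mean (3 residual and 4.21 prior degrees of freedom). Benjamini-Hochberg adjustment covered all tested genes, with a threshold of 0.05. Each infused group was compared with the controls, and 28 days with 7 days. The fit was tested on simulated data.

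The subunits and the gene lists were chosen with earlier results of these data known, and list counts are not independent evidence. All 10 subunits were named, together with other subunits that passed or had the highest means, and, of each pathway list, up to 4 members per comparison and direction with the largest change among those that passed with no overlap between libraries of the groups. Likeness took the 3 tested genes with the highest r, of which 1 is not reported here.

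Depth was estimated from the step between low RPKM values, using GENCODE transcript lengths on GRCm38 and 159 genes. The estimate for control replicate 1 was 12.2 M reads, with quartiles of 11.6 M and 12.5 M. Reads per gene from it are approximate and were used for no test. Alternatives were pseudocounts of 0.1 and 1, no filter, a mean of at least 5 RPKM, quantile normalization, median ratio scaling, a fit of only the 2 groups compared, no trend, each library left out, and a replicate block. Replicate numbers were not taken as pairs. Other steps used Python 3.11.15, pandas 2.3.3, numpy 2.4.6 and matplotlib 3.10.9.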

Additional observations from a re-analysis of the deposited data

Results flagged for a closer look

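The log2 change of Itgb1 differed between the times of infusion: the value at 28 days minus that at 7 days was -0.56 (limma adjusted p = 0.025), with 78.7 and 72.2 RPKM at 28 days against 109 and 114 RPKM at 7 days. Both 28 day libraries were also below both controls, as in 21.3% of the 17585 genes, and both 7 day libraries above them, as in 40.1%. Against the controls neither time passed (limma adjusted p = 0.0556 at 7 days and 0.223 at 28 days). The call between the times was lost in 6 of 15 alternatives.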

How the results depend on the processing

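Of the tested subunits, 4 passed at 7 days, 1 at 28 days and 1 between 7 and 28 days. At 7 days the count was 1 after median ratio scaling, 1 after quantile normalization and 2 without the trend, and 1 to 5 with a library left out. At 28 days it was 0 to 1 with a library left out. Between 7 and 28 days it was 0 after median ratio scaling and 0 with only the 2 groups compared, and 0 to 1 with a library left out. With a library left out, the lone library of its group is assumed to vary like the others, and fewer samples enter the fit. Otherwise the cause was not tested. The labels do not tie same-numbered libraries to each other, and their deviations correlated at 0.149, -0.0193 and -0.0139 in the 3 comparisons. With a replicate block the counts were 3, 1 and 1: at 7 days Itgb2 passed (limma adjusted p = 0.0321), and Itgam (0.0634) and Itga7 (0.0516) did not.

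Over all genes the 1461 higher and 252 lower calls at 7 days ranged, with a library left out, from 340 and 52 without control replicate 1 to 1899 and 353 without 28 day replicate 2. At 28 days the 318 and 171 calls became 23 and 10 on leaving out control replicate 1, 53 and 39 on leaving out the other control, 165 and 69 with only the 2 groups compared, and 45 and 16 without the filter.

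Over all alternatives and comparisons, 268 changes of a tested subunit kept their side of the threshold, 32 fell out of the threshold and 6 came to pass it. No change that passed reversed. Changes that never passed took the opposite sign in 3 cases, counted among the 268. An example is Itgam at 28 days without 28 day replicate 1 (-0.15). Depth limits Itgax, Itgb3 and Itga11 most, since controls held an estimated 4 to 24 reads of each.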

Other observations

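Subunits of lymphocytes and platelets were near the lower end of the values. Itgb7, the beta subunit of lymphocyte receptors, was at 0.269 and 0.0855 RPKM in the controls, 0.538 and 0.603 RPKM at 7 days and 0.607 and 0.504 RPKM at 28 days, so each infused library lay above the controls. Itgal, the alpha subunit of LFA-1, was at 0.221 and 0.249 RPKM in the controls, 0.0863 and 0.353 RPKM at 7 days and 0.337 and 0.475 RPKM at 28 days, with the 28 day libraries above the controls. Itga2b, the platelet partner of Itgb3, was at 0.229 and 0.415 RPKM in the controls, 0.177 and 0.221 RPKM at 7 days and 0.116 and 0.695 RPKM at 28 days, so the 7 day libraries, where Itgb3 was highest, did not exceed the controls. None of these 3 genes was tested, and they were chosen after their values were seen. The 14 T, B and NK cell markers, of which 0 were tested, summed to 2.54 and 2.07 RPKM in the controls, 3.27 and 2.82 RPKM at 7 days and 3.41 and 3.95 RPKM at 28 days. The sum was above the controls in each infused library, but single markers differed. At 7 days both libraries lay above both controls for 2 markers and below them for 4. Of the 17585 genes 40.1% lay above, and the share below was not counted. At 28 days the marker counts were 8 above and 0 below, where 24.7% and 21.3% of the 17585 genes did so. The part of these cells in the subunit values was not tested.

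Itgb1bp2, which encodes the muscle beta1-binding protein melusin, was at 145 and 143 RPKM in the controls, 168 and 131 RPKM at 7 days and 166 and 159 RPKM at 28 days. Its log2 change of 0.05 at 7 days did not pass (limma adjusted p = 0.84), and it was picked after its values were seen.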
